A study of Arabidopsis thaliana with 4 samples.

Results

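The 26 genes described here are carried by the chloroplast (plastid) genome of Arabidopsis thaliana and encode the machinery that reads that genome, together with several single-gene functions, and not the photosynthetic complexes themselves. They were taken as the plastid genes of the RefSeq gene table that have a probe set listed for 1 gene and a symbol not beginning with psa, psb, pet, atp, rbc or ndh, with no filter on brightness. They are 4 RNA polymerase genes (rpoA, rpoB, rpoC1, rpoC2), 7 genes of the large ribosomal subunit (rpl), 8 of the small subunit (rps), and 7 others (accD, ccsA, cemA, clpP, matK, ycf3, ycf4). These are 26 of 69 plastid genes and of 13286 genes named on the array. A further 6 plastid genes of the same kinds (rps12, rpl2, rpl23, rps7, ycf1, ycf2) have only probe sets listed for several gene entries and are described separately.

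Each of 4 groups had 1 Affymetrix array, hybridised with labelled cRNA from total RNA of whole 3-week-old seedlings. The groups were high-light erf6-1, high-light Col-0 wild type, untreated erf6-1 and untreated wild type. High light was 2000 µmol m-2 s-1 for 2 h, and erf6-1 is a mutant of the transcription factor gene ERF6 in the Col-0 background. The study was designed to find genes that depend on ERF6 under reactive oxygen and high light. With 1 array a group there is no spread between replicates, so every difference below compares these particular arrays and carries no p-value or standard error. In whole seedlings, fewer green cells or plastids and less RNA per plastid cannot be told apart.

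Plastid genes are transcribed by a bacterial-type polymerase, whose core the plastid itself encodes in the rpo genes, and by phage-type polymerases imported from the nucleus. The rpoB-rpoC1-rpoC2 operon and accD are known for promoters of the phage-type enzyme, whereas most photosynthesis genes depend on the bacterial-type one. Plastid ribosomes are also of bacterial type and mix plastid-encoded with imported proteins. Many plastid genes are co-transcribed in long operons and then cut and trimmed, so that neighbours on 1 primary transcript can end at different levels. Most plastid messengers lack a lasting poly(A) tail, on which the standard Affymetrix labelling relies, so a plastid signal need not be proportional to the amount of transcript.

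Green-tissue markers were bright on all arrays, and LHCB4.1, PSAE-1 and PSBW together had signals of 64101 in high-light erf6-1, 50876 in the high-light wild type, 90701 in untreated erf6-1 and 139451 in the untreated wild type. The 3 root markers measured summed to 18559, 16616, 22632 and 29570 in the same order of arrays, nearly all of it from PYK10. Both sums were highest in the untreated wild type, as was the plastid share of the whole signal, though not the signal of every plastid gene. The other 2 root markers differed from PYK10. EXPA7 had 160 in high-light erf6-1, 331 in the high-light wild type, 852 in untreated erf6-1 and 625.5 in the untreated wild type. EXPA18 had 102, 403.5, 442 and 265.5 in that order, so both were highest in untreated erf6-1. For light in erf6-1 their log2 differences were -2.41 and -2.12. The part of these markers in the results was not tested. The 69 plastid probe sets held 1.93% of the whole signal in high-light erf6-1, 2.24% in the high-light wild type, 4.39% in untreated erf6-1 and 8.14% in the untreated wild type. The 26 genes alone held 0.339%, 0.403%, 0.671% and 1.03% in the same order.

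Values are MAS5 signals, and log2 differences were taken after raising signals under 100 to that floor. A gene is called lower or higher when it differs by at least 2-fold. A fold with 1 of its 2 signals below the floor is a bound, written "at least"; with both below it, none is given. Of the 26 genes, 19 were above the floor on all 4 arrays.

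**Figure D1:**
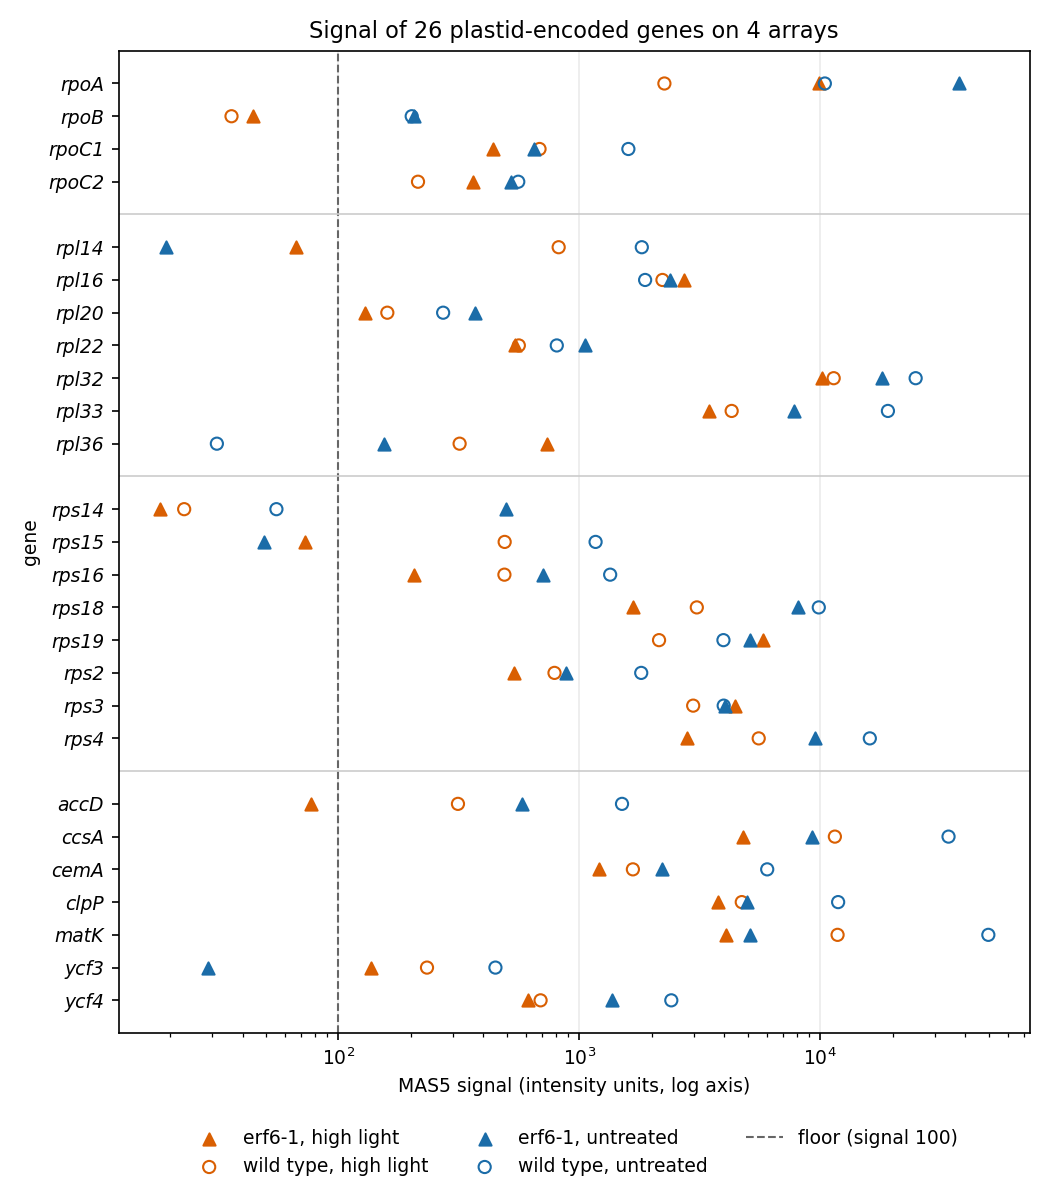
MAS5 signal (log axis) of each of the 26 genes on the 4 arrays, grouped by role; triangles are erf6-1, circles the wild type, orange high light, blue untreated, and the dashed line is the floor of 100. Most genes have their highest point in an untreated array, whereas rpl36 is highest in the 2 high-light arrays and rpoA is higher in erf6-1 than in the wild type under both conditions.

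High light went with lower signals for many of these genes in erf6-1. There, 10 of the 26 genes (38.5%) were lower by 2-fold or more in high light, against 23.9% of all 22746 probe sets. Only rpl36 was at least 2-fold higher, against 13.5% of all probe sets. The median log2 difference was -0.84 for the 26 genes and 0.00 for all probe sets. With the arrays scaled to equal medians, which takes out an offset of -0.63, the median was -0.21 and 6 were called lower, and the background was 14.1% lower and 23.8% higher.

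In the wild type the same comparison called more. Of the 26 genes, 18 (69.2%) were lower by 2-fold or more in high light, against 19.5% of all probe sets, and again only rpl36 was higher, against 11.8%. The median log2 difference was -1.24. With equal medians, which takes out an offset of -0.42, 10 of the 26 were called lower, and the background was 12.9% lower and 18.9% higher. Across the 26 genes, the light responses of erf6-1 and of the wild type had a Pearson correlation of 0.61 and a Spearman correlation of 0.51, against 0.55 and 0.63 for the 43 other plastid genes and 0.31 and 0.27 over all probe sets; the 2 responses share no array but share probe sets and scaling. The genes lower in both genotypes numbered 8, which is 80.0% of the 10 in erf6-1 and 44.4% of the 18 in the wild type. Over all probe sets these shares were 30.3% and 37.1%, and for the 43 other plastid genes 85.7% and 41.4%.

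**Figure D2:**
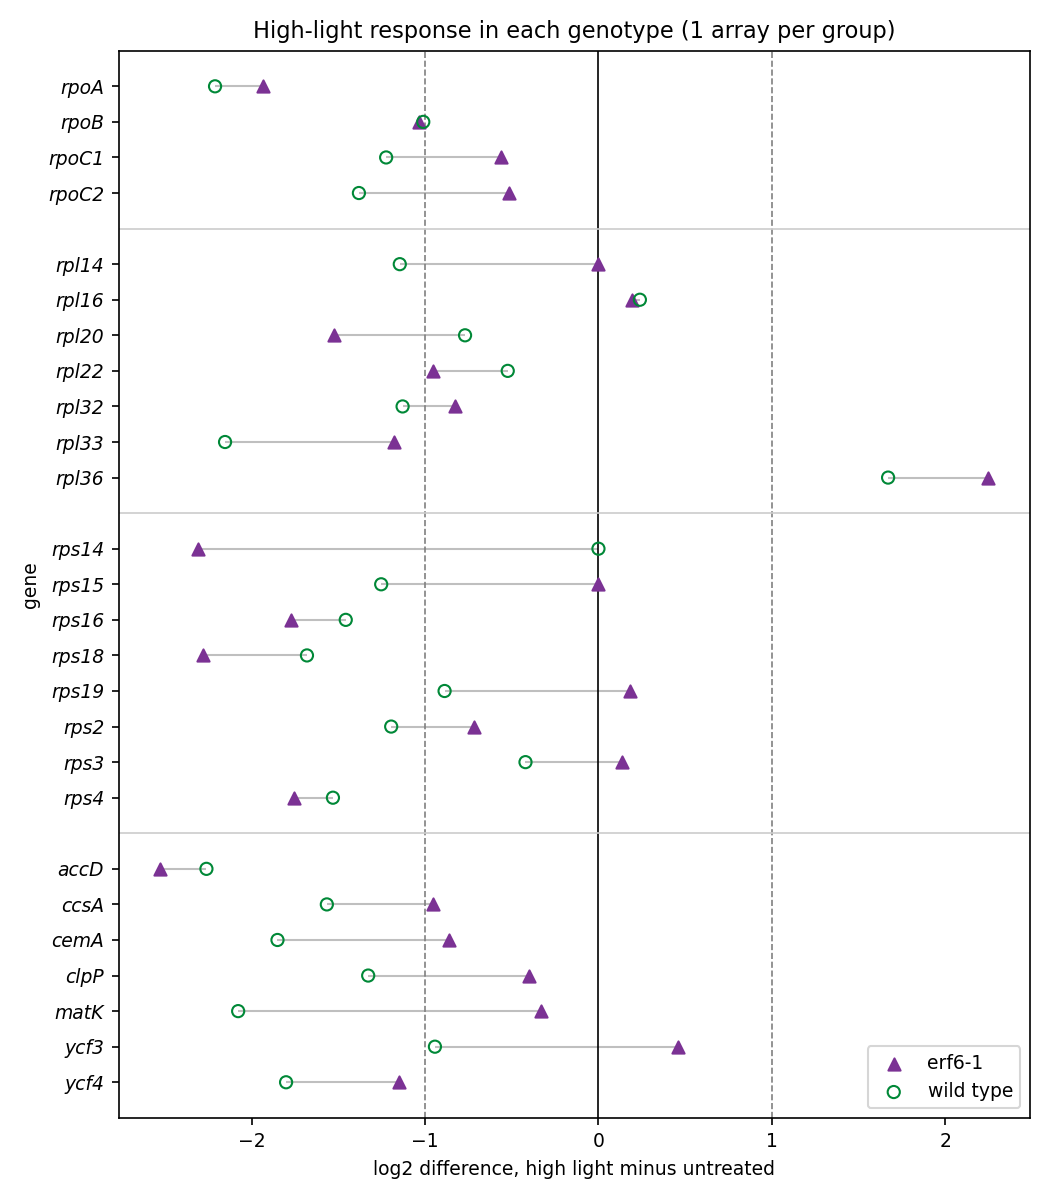
Log2 difference of high light minus untreated for each gene, with triangles for erf6-1, circles for the wild type, a grey line joining the 2 and dashed lines at 2-fold; genes under the floor on both arrays stand at 0. The points lie mostly left of 0, with rpl36 at 2.25 in erf6-1 and 1.67, a bound, in the wild type on the other side.

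Between the high-light arrays, 6 genes (23.1%) were at least 2-fold lower in erf6-1 than in the wild type, against 6.06% of all probe sets, and 3, rpoA, rps19 and rpl36, were higher (11.5%), against 5.68%. This pair of arrays had nearly equal medians, with an offset of -0.01, and the counts of 6 and 3 held when the arrays were quantile normalised or scaled to equal medians. Between the untreated arrays, 11 of the 26 genes (42.3%) were lower in erf6-1, against 16.3%. rpoA and rps14 were at least 2-fold higher (7.69%), against 19.4%. The median log2 difference was -0.32 in high light and -0.79 in untreated plants, where the values ran from -4.18 for rpl14 to 2.31 for rps14. Both ends are bounds set by the floor, and with the floor at the 15th percentile they were -5.53 and 3.17.

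The 2 genotype comparisons use different arrays. Their log2 differences had a Pearson correlation of 0.83 and a Spearman correlation of 0.84 across the 26 genes, 0.80 and 0.76 across the 19 above the floor throughout, and 0.03 and 0.04 over all probe sets. For the 43 other plastid genes they were 0.71 and 0.70. The points share probe sets, genotype and scaling, so this is a description of these arrays. The genes lower in erf6-1 in both numbered 5, which is 83.3% of the 6 in high light and 45.5% of the 11 in untreated plants, and rpoA was higher in both. The shares were 23.7% and 8.85% over all probe sets, and 80.0% and 54.5% for the 43 other plastid genes.

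**Figure D3:**
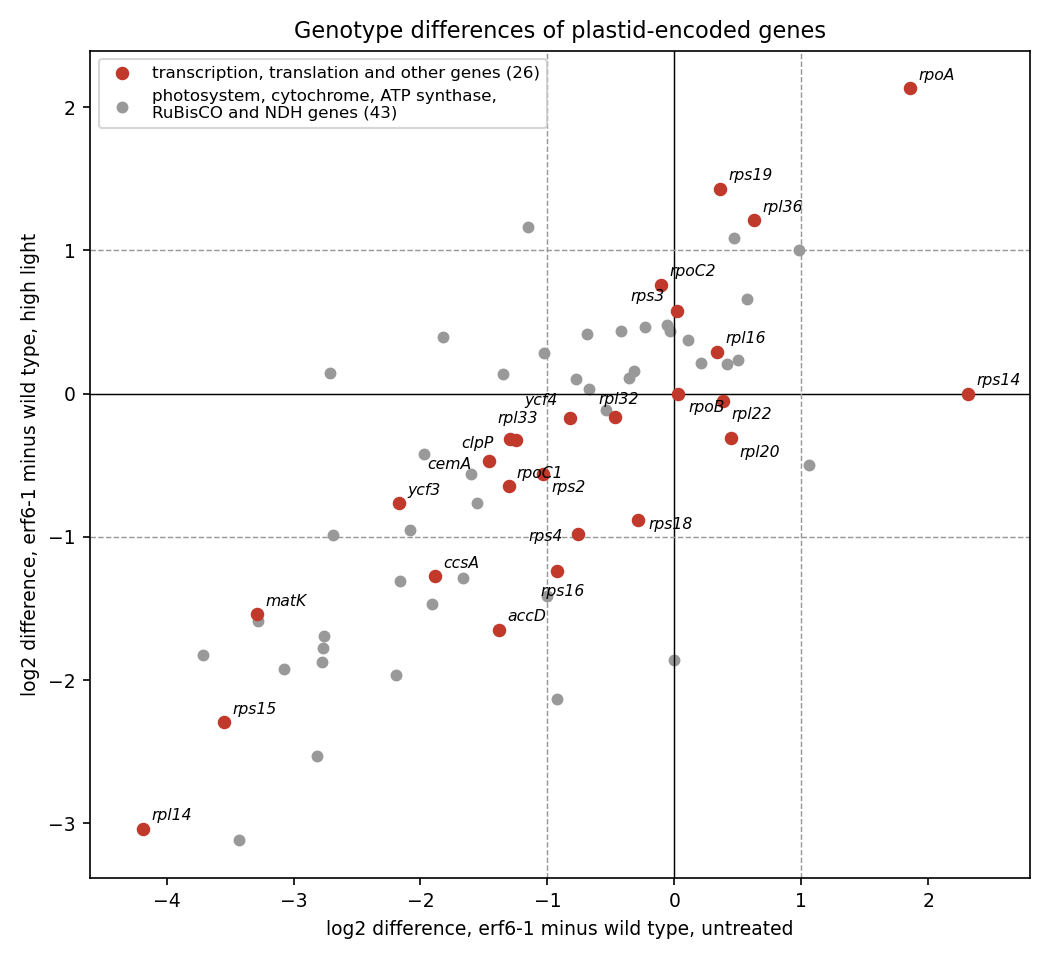
Log2 difference of erf6-1 minus wild type in untreated plants (horizontal) against the same in high light (vertical) for the 26 genes (red, named) and the 43 other plastid genes (grey), with dashed lines at 2-fold; rps14 and rpoB were under the floor on both high-light arrays and stand at 0 there. rpl14, rps15 and matK lie at the lower left and rpoA at the upper right.

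Among the RNA polymerase genes, rpoA, for the alpha subunit on which the core assembles, stood apart from the other subunits between genotypes. Its signal was 9873 in high-light erf6-1, 2255 in the high-light wild type, 37815 in untreated erf6-1 and 10449 in the untreated wild type. In erf6-1 it was thus 4.38-fold higher in high light and 3.62-fold higher in untreated plants. Its high-light genotype difference of 2.13 was the 20th highest of 22746 probe sets, and its untreated one of 1.86 was the 1748th highest. In both genotypes it was lower in high light, 3.83-fold in erf6-1 and 4.63-fold in the wild type.

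The other 3 subunits, beta (rpoB) and the parts of beta prime (rpoC1, rpoC2), come from 1 operon. rpoC1 had signals of 437 in high-light erf6-1, 684 in the high-light wild type, 646 in untreated erf6-1 and 1598 in the untreated wild type, and was 2.47-fold lower in untreated erf6-1. rpoC2 had 362, 214, 519 and 558 on the arrays in that order, with no genotype difference of 2-fold. rpoB was dim, at 44.3 and 36.0 in high-light erf6-1 and wild type and at 205 and 202 in untreated erf6-1 and wild type. For high light minus untreated, rpoB was at least 2.05-fold lower in erf6-1, where rpoC1 had a log2 difference of -0.56 and rpoC2 of -0.52. In the wild type all 3 were lower by 2-fold or more. With equal medians none of these light calls held: rpoB was at -0.66 in erf6-1, and in the wild type rpoB was at -0.83, rpoC1 at -0.80 and rpoC2 at -0.96. rps2, for a small-subunit protein, follows them in the operon. It had signals of 536 in high-light erf6-1, 789 in the high-light wild type, 881 in untreated erf6-1 and 1807 in the untreated wild type, and was 2.05-fold lower in untreated erf6-1.

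accD, for the plastid subunit of acetyl-CoA carboxylase, which starts fatty acid synthesis, was the only gene of the 26 called lower in all 4 pairs of arrays. This was not particular to accD among plastid genes. Outside the 26, psbA, psaI, psaJ, ndhD and the ycf1 probe set listed for several entries were also at least 2-fold lower in all 4. The accD signal was 77.0 in high-light erf6-1, 314 in the high-light wild type, 577 in untreated erf6-1 and 1504 in the untreated wild type. High light minus untreated, it was lower by at least 5.77-fold within erf6-1 and by 4.80-fold within the wild type. The genotype difference was at least 3.13-fold in high light and 2.61-fold in untreated plants, lower in erf6-1 each time. Of the 4 genes listed here as having phage-type promoters only (accD, rpoB, rpoC1, rpoC2), accD and rpoB were called lower for light in erf6-1. Genes with promoters of both types were not listed. All 4 were called lower in the wild type. Over all probe sets the shares were 23.9% and 19.5%, and over the 26 genes 38.5% and 69.2%. The rpoA gene, not among the 4, was also called lower for light in both genotypes. With equal medians accD alone of the 4 was called in either genotype.

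The rpoA gene closes a run of ribosomal protein genes that starts at rpl23, and this run held the lowest genotype differences of the set and the only gene higher in high light. rpl14, for a large-subunit protein, had signals of 66.9 in high-light erf6-1, 821 in the high-light wild type, 19.2 in untreated erf6-1 and 1817 in the untreated wild type. Both erf6-1 arrays were under the floor and both wild-type arrays well above it. It was at least 18.2-fold lower in untreated erf6-1, the lowest difference of all 22746 probe sets on the floored scale. In high light the genotype difference was at least 8.21-fold on the lower side, the 5th lowest.

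The neighbours of rpl14 did not share its pattern. rpl16 had signals of 2711 in high-light erf6-1, 2213 in the high-light wild type, 2370 in untreated erf6-1 and 1875 in the untreated wild type. rps3 had 4423, 2968, 4024 and 3974 on the arrays in the same order, and rpl22 had 542, 561, 1052 and 806. None of these 3 was called in any pair of arrays, and they are the only such genes of the 26. rps19, next in the row, had signals of 5769 in high-light erf6-1, 2142 in the high-light wild type, 5090 in untreated erf6-1 and 3964 in the untreated wild type. It was 2.69-fold higher in erf6-1 than in the wild type in high light, and the lowest of its 4 signals was that of the high-light wild type.

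rpl36, for the smallest protein of the large subunit, lies between rpoA and rpl14. Its signal was 737 in high-light erf6-1, 318 in the high-light wild type, 155 in untreated erf6-1 and 31.3 in the untreated wild type. It was therefore higher in high light, by 4.76-fold in erf6-1 and by at least 3.19-fold in the wild type, while rpoA was lower in both. Between the high-light arrays, rpl36 was 2.31-fold higher in erf6-1 than in the wild type.

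**Figure D4:**
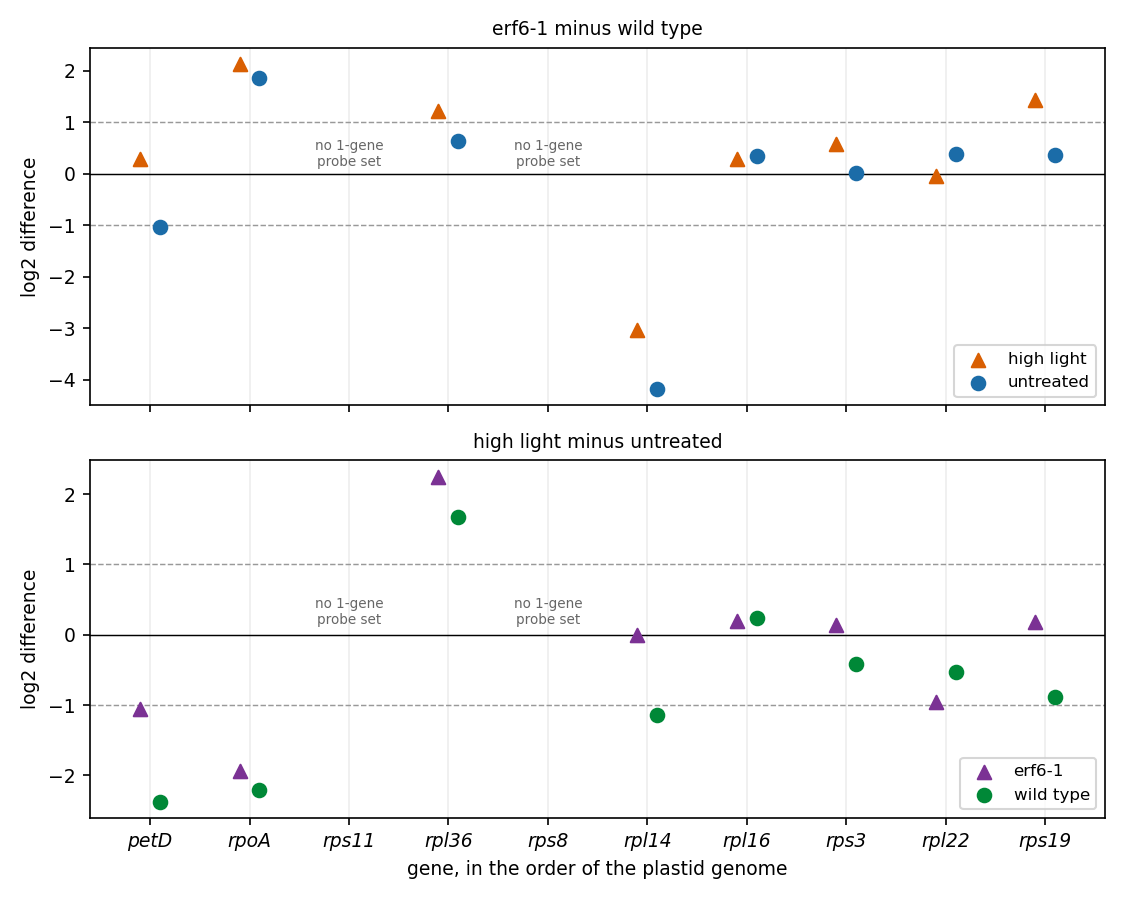
Log2 differences for petD and the genes that follow it in plastid gene order up to rps19, evenly spaced; the upper panel gives erf6-1 minus wild type in high light (triangles) and untreated (circles), the lower panel high light minus untreated in erf6-1 (triangles) and wild type (circles), with dashed lines at 2-fold. rpl14 drops to -3.04 and -4.18 between genotypes, both bounds, beside rpl16 at 0.29 and 0.34.

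Neighbours were also compared along the whole plastid genome. Over 31 adjacent pairs that held at least 1 of the 26 genes, pairs of the run just described included, the median gap in log2 difference was 0.78 for light in erf6-1 and 0.50 for light in the wild type. It was 0.70 for genotype in high light and 1.35 for genotype in untreated plants. Pearson's correlation between neighbours was 0.24 and 0.46 for light in erf6-1 and the wild type, and 0.15 and 0.06 for genotype in high light and untreated plants. Neighbours were taken by gene order alone, whatever their operon, and values at the floor were included. Pairs that are not adjacent were not compared, so whether neighbours were more alike than other plastid genes was not tested.

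Among the remaining large-subunit genes, rpl33 had signals of 3437 in high-light erf6-1, 4289 in the high-light wild type, 7782 in untreated erf6-1 and 19093 in the untreated wild type. It was lower in high light, 2.26-fold in erf6-1 and 4.45-fold in the wild type, and 2.45-fold lower in untreated erf6-1. rpl32 had 10174, 11371, 18022 and 24887 in the same order, and was 2.19-fold lower in high light in the wild type alone. rpl20 had 128, 160, 370 and 272, and was 2.88-fold lower in high light in erf6-1 alone. With equal medians the light calls of rpl33 in erf6-1 (-0.55), rpl32 (-0.71) and rpl20 (-0.89) did not hold. Whether these light responses differ between the genotypes could not be tested.

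Among the small-subunit genes, rps18, rps4 and rps16 were lower in high light in both genotypes. rps18, co-transcribed with rpl33, had signals of 1665 in high-light erf6-1, 3073 in the high-light wild type, 8089 in untreated erf6-1 and 9861 in the untreated wild type. rps4 had 2812, 5553, 9515 and 16060 in that order, and rps16, an intron-containing gene, had 207, 489, 708 and 1343. rps18 was 4.86-fold lower in high light in erf6-1 and 3.21-fold lower in the wild type, rps4 3.38-fold and 2.89-fold, and rps16 3.43-fold and 2.75-fold. Of these, rps16 was also 2.36-fold lower in erf6-1 in high light.

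rps15 and rps14 separated the genotypes in opposite ways. rps15 had signals of 72.6 in high-light erf6-1, 490 in the high-light wild type, 49.0 in untreated erf6-1 and 1168 in the untreated wild type. As with rpl14, both erf6-1 arrays were under the floor. It was at least 11.7-fold lower in untreated erf6-1, the 8th lowest difference of all probe sets. Under high light it was lower in erf6-1 by at least 4.90-fold, the 23rd lowest. rps14, which is co-transcribed with the photosystem I genes psaA and psaB, was above the floor on 1 array only, with 496.5 in untreated erf6-1. It had 18.2 in high-light erf6-1. The wild type had 22.9 in high light and 55.3 untreated. It was at least 4.96-fold higher in untreated erf6-1 than in the untreated wild type, and psaB had a log2 difference of -0.77 in the same pair.

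The 7 genes outside transcription and translation were all on the lower side in erf6-1. In high light 3 of them (matK, ccsA and accD) were at least 2-fold lower, against 6.06% of all probe sets. In untreated plants 6 were, against 16.3%. Of the 43 other plastid genes, 22 were below 0 in high light and 34 in untreated plants, and 15 and 22 were called lower. matK, a maturase that helps to splice plastid introns and lies within an intron of a transfer RNA gene, had signals of 4057 in high-light erf6-1, 11800 in the high-light wild type, 5099 in untreated erf6-1 and 49851 in the untreated wild type. In erf6-1 it was 2.91-fold lower in high light and 9.78-fold lower in untreated plants, the 26th lowest difference of all probe sets there. High light minus untreated gave it a log2 difference of -0.33 in erf6-1, whereas wild-type matK was 4.22-fold lower in high light.

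ccsA, needed to attach haem to cytochrome c proteins, had signals of 4756 in high-light erf6-1, 11500 in the high-light wild type, 9229 in untreated erf6-1 and 34076 in the untreated wild type. It was lower in erf6-1, 2.42-fold in high light and 3.69-fold in untreated plants. cemA, for an envelope membrane protein, had 1205, 1669, 2194 and 6023 in the same order and was 2.75-fold lower in untreated erf6-1. clpP, for the proteolytic subunit of the stromal Clp protease, had 3773, 4724, 4986 and 11864 and was 2.38-fold lower there. For high light minus untreated, none of the 3 was called in erf6-1, with log2 differences of -0.96 for ccsA, -0.86 for cemA and -0.40 for clpP. All 3 were called lower in that comparison in the wild type, although clpP, at -0.90, was not with equal medians.

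ycf3 and ycf4 encode assembly factors of photosystem I. ycf4 had signals of 614 in high-light erf6-1, 690.5 in the high-light wild type, 1364 in untreated erf6-1 and 2408 in the untreated wild type, and was lower in high light, 2.22-fold in erf6-1, a call not kept with equal medians (-0.52), and 3.49-fold in the wild type. ycf3 had 137, 233, 28.8 and 448 on the arrays in that order. It was at least 4.49-fold lower in untreated erf6-1, the 1 array in which it was under the floor.

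Subtracting the wild-type light response from that of erf6-1 gave a median of 0.57. It reached 2-fold on the higher side for 5 of the 26 genes (19.2%), against 18.5% of all probe sets, and on the lower side for rps14 alone (3.85%), against 21.4%. The share of higher values was near that of the array as a whole. The 5 were matK at 1.75, ycf3 at 1.40, rps15 at 1.25, rpl14 at 1.15 and rps19 at 1.07. In 3 of these, ycf3, rps15 and rpl14, untreated erf6-1 was under the floor, which limits any further decrease. For rps15 and rpl14 the high-light erf6-1 array was under it too. Their values are thus the wild-type responses of -1.25 and -1.15 with the sign changed, and the erf6-1 response was not measured. For rps14 both wild-type arrays were under the floor, so its value of -2.31 is the erf6-1 response alone, a bound.

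Set beside the other 43 plastid genes, which encode photosystem, cytochrome, ATP synthase, RuBisCO and NDH subunits, the 26 genes differed little in their medians. Light gave medians of -0.84 for the 26 genes and -0.55 for the 43 in erf6-1, and of -1.24 and -1.41 in the wild type. The genotype gave -0.32 and -0.12 in high light, and -0.79 and -1.03 in untreated plants. The quartiles of both groups overlapped in each comparison, and no test is possible on 1 array a group. rpoA was 2.25 above the median of the 43 genes in the high-light genotype comparison, and rpl14 stood at -2.92 or lower relative to it, a bound because rpl14 was under the floor in high-light erf6-1.

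**Figure D5:**
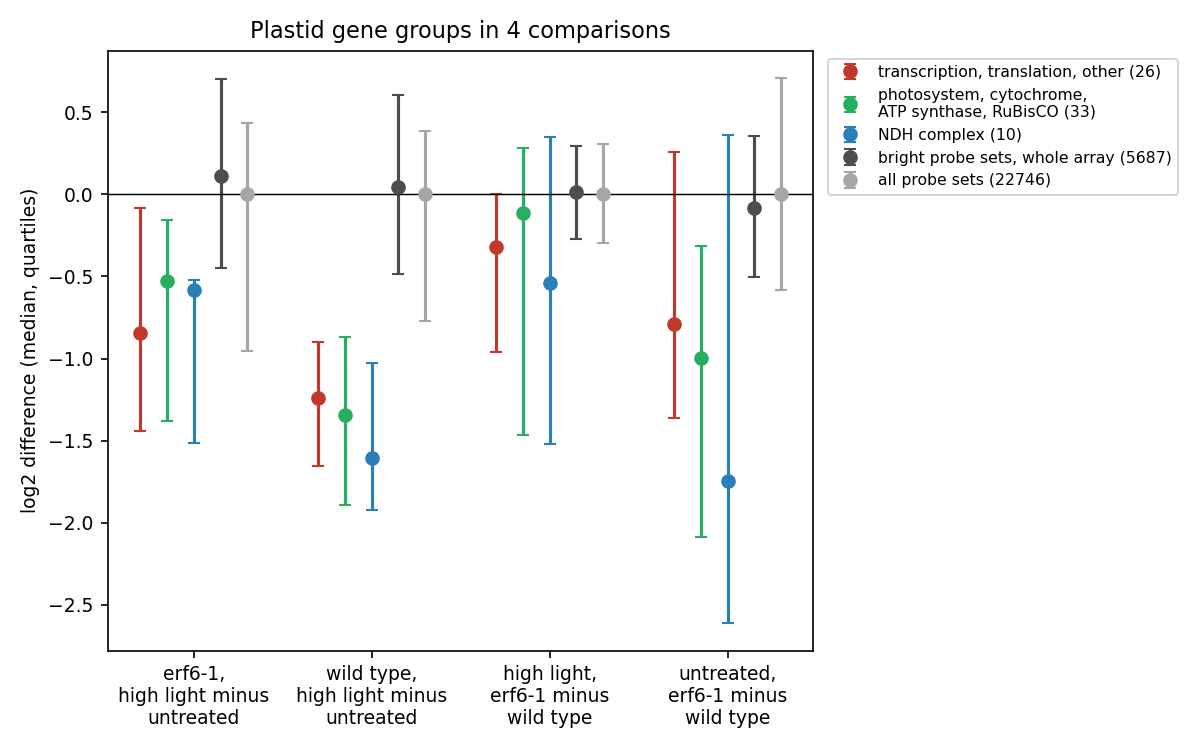
Median (point) and quartiles (bars) over genes of the log2 difference in 4 comparisons for the 26 genes (red), the 33 plastid photosystem, cytochrome, ATP synthase and RuBisCO genes (green), the 10 plastid NDH genes (blue), 5687 bright probe sets and all 22746 probe sets (greys). The medians of the 3 plastid groups lie below those of both array-wide groups in all 4 comparisons, and the bars of the plastid groups overlap. In both genotype comparisons these bars also overlap those of the array-wide groups.

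The counts were also taken among bright probe sets alone, those whose mean log2 signal was at or above the 75th percentile. There were 5687 of them, 17 of the 26 genes included. For light, 6 of the 17 were lower in erf6-1, against 8.55% of bright probe sets, and 13 in the wild type, against 9.09%. Between genotypes, 3 of the 17 were lower in erf6-1 in high light, against 1.83%, and 7 in untreated plants, against 8.48%. On the higher side, rpoA and rps19 were called in high light, against 1.79%, and rpoA alone in untreated plants, against 6.28%. None of the 17 was 2-fold higher in high light, against 16.8% in erf6-1 and 13.7% in the wild type.

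The probe sets listed for several plastid entries covered genes of the inverted repeat and the split gene rps12. rps12 had 2 probe sets, both lower in erf6-1, with log2 differences of -1.35 and -1.88 in high light and of -1.36 and -1.07 in untreated plants. rpl2 had a genotype difference of -1.58 in untreated plants and rpl23, its neighbour, 0.22. In high light these differences were -0.44 for rpl2 and -1.06 for rpl23. For light in erf6-1, rpl2 was at 0.45 and rpl23 at -2.18. ycf1, for a large protein of the inner envelope, had signals of 684 in high-light erf6-1, 1390 in the high-light wild type, 2021 in untreated erf6-1 and 4318 in the untreated wild type. rps7 had 5306, 11229, 7773 and 11007 in the same order, and was low in high-light erf6-1. ycf2 had 61.8, 6.3, 75.5 and 408.6 in that order, above the floor in the untreated wild type only. Its log2 difference was -2.03, a bound, for light in the wild type and for the genotype in untreated plants. With these 7 probe sets added, 11 of 33 were lower in high-light erf6-1 than in the high-light wild type, against 6.06% of all probe sets.

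Only some of the imported partners of these proteins had a named probe set. Of 39 listed nuclear genes for plastid ribosomal proteins, 10 had one. None of the 10 was called lower in any pair of arrays. The shares called lower were 6.06% to 23.9% of all probe sets and 1.83% to 9.09% of bright ones. Their median log2 difference was 0.24 for light in erf6-1 and 0.03 for light in the wild type, and 0.08 in high light and -0.41 in untreated plants for the genotype. AT5G24490 and AT2G43030 were called higher in high light in erf6-1, at 1.81 and 1.05. These are 20% of the 10, against 13.5% of all probe sets and 16.8% of bright ones. Of 13 listed nuclear Clp subunits, 4 were measured, and AT4G25370 was at 2.32 for light in the wild type and 1.90 for the genotype in untreated plants. The phage-type polymerase AT5G15700 was under the floor on 3 of 4 arrays. No named probe set was matched for the sigma factors, polymerase-associated proteins, acetyl-CoA carboxylase partners or plastid RNA decay factors listed.

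Mitochondrial genes, matched by symbol, had 18 probe sets, of which 14 were under the floor on at least 1 array. Their median log2 difference was 0.00 for light in erf6-1 and -0.42 for light in the wild type, and -0.15 in high light and -0.21 in untreated plants for the genotype.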

How the data were processed

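The deposited table holds 1 intensity value for each of 22746 probe sets on 4 arrays. Per the labels, the authors made these signals with MAS5, with no version recorded in these sources. The 2% trimmed means of 493 to 495 are nearly equal, and the medians run from 207 to 321. Neither scanner files nor detection calls were used. The labels carry a description of embryos that contradicts the seedlings, and it was ignored.

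Probe sets were named through GEO's platform annotation and the RefSeq table of TAIR10.1. Of 14016 listed, 13513 had 1 gene, of which 13436 matched by gene ID; mitochondrial genes were matched by symbol. Signals were raised to the pooled 30th percentile (100.0), put on the log2 scale and subtracted (Python 3.11.15, pandas 2.3.3), and called at 2-fold. The design could give no test, and precision is limited by the number of arrays. The calculation was tested on simulated data with little noise and with changes larger than 2-fold in bright probe sets only. That test does not cover calls near 2-fold or near the floor. The members and gene lists were chosen with earlier results of these data known. All members could be named, as could up to 3 measured genes of each list; the mitochondrial match and the brightness comparison were chosen after values were seen. The alternatives tried were quantile normalisation, equal medians, a pseudocount of 32, a floor at the 15th percentile, a brightness filter, thresholds of 1.5-fold and 3-fold, and the added probe sets.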

Additional observations from a re-analysis of the deposited data

Results flagged for a closer look

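Light responses of opposite sign in the 2 genotypes were seen for rps19, ycf3 and rps3. For rps19, high light minus untreated gave 0.18 (log2) in erf6-1 but -0.89 in the wild type, a difference of 1.07. For ycf3 it gave 0.46, a bound, in erf6-1 but -0.94 in the wild type, a difference of 1.40. For rps3 it gave 0.14 in erf6-1 but -0.42 in the wild type, a difference of 0.56. The difference between the genotypes was not tested, for want of replicates. None of the 6 single responses was called at 2-fold. The ycf3 response in erf6-1 is a lower bound, from signals of 137 in high light and 28.8 untreated, so it may exceed 2-fold. With the floor at the 15th percentile, the ycf3 difference between genotypes was 2.75. Which genes are listed also depends on the scaling. Equal medians take out offsets of -0.63 in erf6-1 and -0.42 in the wild type, and the latter is the size of the wild-type rps3 response. In erf6-1, matK at -0.33 and clpP at -0.40 would change sign. Their wild-type responses with equal medians were -1.65 and -0.90.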

How the results depend on the processing

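No paired analysis was possible because each group had 1 array. With 1 array a group the labels give no replicate spread, so a median was taken as moved when it changed by 0.5 or more on the log2 scale, and a count when it changed by over 1.5 times. Of 130 values recomputed, 113 stayed within these limits. With equal medians, the genes lower in high light numbered 6 in erf6-1, with a median of -0.21, and 10 in the wild type. The shares of all probe sets were 14.1% and 12.9%. With the pseudocount of 32, and with the floor at the 15th percentile, 2 genes were higher in high light in erf6-1. These compare with 16.5% and 18.6% of all probe sets. At 1.5-fold, 10 genes were lower in high-light erf6-1 than in the wild type, against 14.8%. The difference between responses called 12 higher and 3 lower, against 27.5% and 30.5%. At 3-fold, genes lower in high light numbered 6 in erf6-1 and 7 in the wild type, against 13.3% and 8.51%. At that threshold, genes lower in erf6-1 numbered 3 in high light and 5 untreated, against 1.19% and 8.27%. In high light 1 was higher, against 1.15%, and the difference between responses called 1 higher, against 9.58%. With the added probe sets, 11 of 33 were lower in high-light erf6-1, against 6.06% of all probe sets. The difference between responses called 2 of 33 lower, against 21.4%. The median of the 26 genes minus that of the other plastid genes, for the difference between responses, was -0.13 and became 0.034 after quantile normalisation. Of 58 calls of single genes, 28 held at 3-fold, 44 with equal medians and 50 after quantile normalisation, and none changed sign under the alternatives run. Signals near the floor limit what can be said of rpoB, rps14, rps15, rpl14, ycf3, rpl36 and accD.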
